A study of Mus musculus with 66 samples.

Results

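The genes described here encode the proteins of the mitochondrial ribosome, in medial prefrontal cortex of mice given saline or ethanol. They are the genes whose symbol starts with Mrpl or Mrps followed by a digit, and each is represented by its brightest Affymetrix probe set among those with a mean at or above the 40th percentile of all probe sets (log2 5.10). All 76 such symbols on the array passed that threshold, out of 13196 genes tested, with 47 Mrpl genes (named for the large subunit) and 29 Mrps genes (named for the small subunit). The brightest probe sets were those of Mrpl27 (mean log2 10.19), Mrpl39 (9.94) and Mrps33 (9.92). The dimmest, and so the nearest to the threshold, were those of Mrpl1 (6.87), Mrps27 (6.88) and Mrpl54 (7.37), and no symbol lay outside it. Brightness depends on the probes as well as on the transcript, so levels are not compared between genes.

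The 66 arrays came from male mice aged 10 to 12 weeks, and each array was hybridised with RNA pooled from 4 to 5 animals. Progenitor strains C57BL6/J and DBA/2J gave 3 arrays after saline and 3 after ethanol each, and 27 BXD recombinant inbred strains, which carry mixtures of the genomes of those progenitors, gave 1 saline and 1 ethanol array each. Ethanol was 1.8 g/kg by intraperitoneal injection, and every animal, saline controls included, also went through 15 min of restraint and 10 min in a light-dark box and was killed 4 h after the injection. Labels do not say how the pools of one group were drawn, so p-values measure the spread between these pools.

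Mitochondrial ribosomes translate the few messages of mitochondrial DNA, all of them for membrane subunits of the oxidative phosphorylation complexes. Their RNA is mitochondrial, but every protein is encoded in the nucleus, made on cytosolic ribosomes and imported. A small subunit reads the message, and a large subunit joins the amino acids and releases the chain through an exit tunnel at the inner membrane. Many of the proteins have bacterial relatives, and others are found only in mitochondria. Neurons rely heavily on oxidative phosphorylation for synaptic activity. The symbols follow an older naming: the products of Mrps30 and Mrps18a sit in the large subunit, and that of Mrps36 was later assigned to an oxoglutarate dehydrogenase complex.

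Promoters of this family are known for sites of nuclear respiratory factor 1 (NRF1), of the ETS factor GABP, and of SP1 and YY1. RefSeq windows (GRCm38.p6) were matched for 67 of the 76 genes, giving 73 windows, and the 250 bases upstream of each start were searched on both strands, where matches of different motifs may overlap. The NRF1 core GCATGCGC occurred in 8 member windows (11%), against 2.26% of all 32851 windows. The ETS core CCGGAAG occurred in 17 (23.3%, against 6.91%), the SP1 box GGGCGG in 37 (50.7%, against 32.7%) and the YY1 core AAGATGG in 6 (8.22%, against 4.49%). A match is a run of letters, not a measured binding site. The 150 bases before the start are shown for Mrpl48 and Mrpl55, the members whose levels differed most between strains, and for Mrpl22 and Mrpl17, which hold an NRF1 core there. Capitals mark the motif matches on either strand.
Mrpl48, the most upstream of its 4 windows, chr7:100608302-100608451, minus strand: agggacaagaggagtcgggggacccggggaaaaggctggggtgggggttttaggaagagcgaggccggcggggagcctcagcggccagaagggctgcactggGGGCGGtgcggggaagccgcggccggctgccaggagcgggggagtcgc
Mrpl55, chr11:59202336-59202485, plus strand: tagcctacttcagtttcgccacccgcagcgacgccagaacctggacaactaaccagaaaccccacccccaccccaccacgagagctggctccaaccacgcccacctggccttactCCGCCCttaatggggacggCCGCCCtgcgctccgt
Mrpl22, chr11:58171514-58171663, plus strand: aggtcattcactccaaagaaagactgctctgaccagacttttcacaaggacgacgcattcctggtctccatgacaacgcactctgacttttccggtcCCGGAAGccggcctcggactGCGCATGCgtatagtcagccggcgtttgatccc
Mrpl17, chr7:105811088-105811237, minus strand: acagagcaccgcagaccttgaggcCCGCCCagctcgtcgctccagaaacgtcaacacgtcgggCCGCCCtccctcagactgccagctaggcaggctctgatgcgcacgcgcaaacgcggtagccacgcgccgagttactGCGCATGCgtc
In these stretches Mrpl48 and Mrpl55 show SP1 boxes alone, Mrpl22 an ETS core close to its NRF1 core, and Mrpl17 SP1 boxes and the NRF1 core just before the start. Another window of Mrpl48, not shown, holds an ETS core. The other members whose windows hold the NRF1 core are Mrpl9, Mrpl10, Mrpl32, Mrpl33, Mrpl39 and Mrps18b.

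The tissue label was checked on marker genes. All 6 neuron markers passed the brightness threshold and averaged between 11.75 and 12.13 on every array, 5 of 6 cortical layer markers passed, and so did 5 of 7 striatal markers. Oligodendrocyte markers (3 of 4 measured) ran from 9.07 to 9.60 on C57BL6/J arrays and from 8.36 to 8.90 on DBA/2J arrays, without overlap. The neuron markers did not overlap either, though they lay closer, from 11.95 to 12.07 on C57BL6/J arrays and from 11.86 to 11.92 on DBA/2J arrays. Choroid plexus markers (2 of 4 above threshold; Kl and Folr1 were not) ran from 6.21 to 6.49 on C57BL6/J arrays but from 6.17 to 8.63 on DBA/2J arrays. In such bulk tissue, fewer cells of a type and less RNA per cell cannot be told apart. No array was a copy of another, with a highest correlation between arrays of 0.9975.

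The comparison of the progenitor strains asks whether the mitochondrial ribosome differs with genotype. After saline, 5 of the 76 members were called by limma at an adjusted p below 0.05 (6.58%), against 10.3% of all genes. Levels in DBA/2J were lower for Mrpl55, Mrpl48, Mrpl51 and Mrpl35 and higher for Mrpl49. All 5 encode large subunit proteins, and they make up 10.6% of the 47 Mrpl genes, close to the share of all genes. None of the 29 Mrps genes was called on its brightest probe set, although 5 had an unadjusted p below 0.05. Mrps14 and Mrps15 were called on other probe sets, described below. Over all members, 42 differences were negative (against 45.4% of all genes) and 34 positive, with a median of -0.01 on the log2 scale against 0.02 for the whole table. The sign of the members' median turned with the scaling. Repeated quantile normalization gave a median of 0.02 with 33 negative, against 0.027 for the whole table. The array SD as a covariate gave 0.04 with 29 negative, against 0.026. Without an adjustment, 17 members reached p below 0.05, against 25.2% of all genes, and the DBA/2J and C57BL6/J arrays of 20 members did not overlap, against 30.4% of all genes.

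Mrpl55 encodes a large subunit protein found only in animal mitochondria. Its log2 levels after saline were 8.37, 8.59 and 8.44 in C57BL6/J and 7.84, 7.81 and 7.74 in DBA/2J. The lowest C57BL6/J array lay well above the highest DBA/2J array. DBA/2J was lower by 1.59-fold (log2 difference -0.67, SE 0.08, limma adjusted p = 5.3e-05, n = 3 and 3).

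Mrpl48 is another large subunit gene, and its product lies at the central protuberance. Levels after saline were 9.34, 9.63 and 9.62 in C57BL6/J and 8.80, 8.76 and 8.90 in DBA/2J. Again the strains did not overlap. The DBA/2J level was 1.63-fold lower (log2 difference -0.71, SE 0.09, limma adjusted p = 7.6e-05).

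The other differences after saline were smaller. Mrpl49, whose product is specific to mitochondria, measured 8.24, 8.36 and 8.41 in C57BL6/J and 8.59, 8.60 and 8.68 in DBA/2J, a difference of 0.29 (SE 0.08, limma adjusted p = 0.0279). Mrpl51 measured 9.26, 9.41 and 9.47 in C57BL6/J and 9.10, 9.05 and 9.08 in DBA/2J, a difference of -0.30 (SE 0.08, limma adjusted p = 0.0285). Mrpl35, the relative of a bacterial large subunit protein, measured 8.61, 8.76 and 8.78 in C57BL6/J and 8.37, 8.49 and 8.49 in DBA/2J, a difference of -0.27 (SE 0.08, limma adjusted p = 0.0486). All 3 were without overlap between strains, but their gaps were narrow. Leaving out a single array removed these calls: 2 members were left when saline C57BL6/J array 2 or any of the saline DBA/2J arrays was omitted. The choroid plexus markers ranged from 6.72 to 7.67 on the saline DBA/2J arrays, and their part in these differences was not tested.

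**Figure D1:**
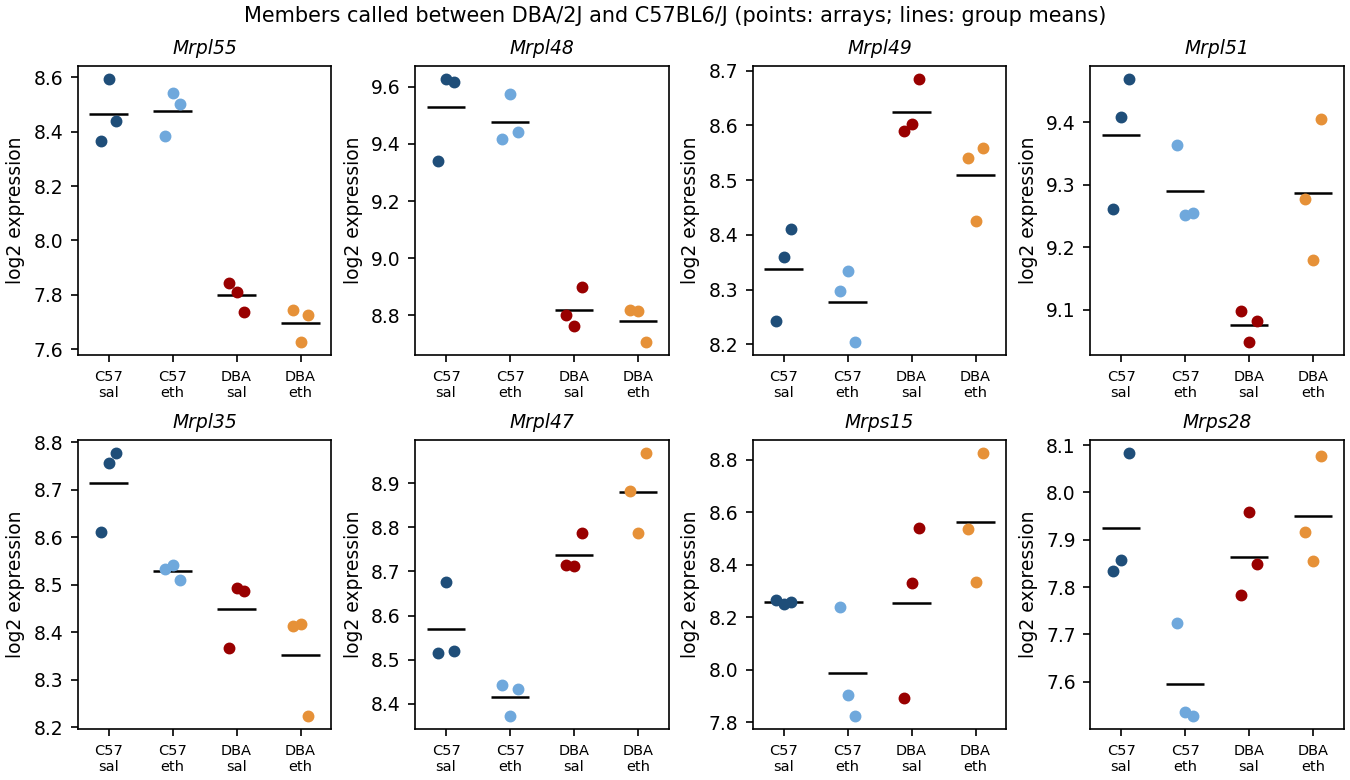
Log2 expression of the 8 members called between DBA/2J and C57BL6/J after saline or after ethanol; each point is 1 array, lines are means of 3 arrays, and the vertical scales differ and do not start at 0 (C57, C57BL6/J; DBA, DBA/2J; sal, saline; eth, ethanol). Mrpl55 and Mrpl48 stand about as far apart after ethanol as after saline, whereas Mrps15 and Mrps28 separate the strains after ethanol and overlap after saline.

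The strains were then compared after ethanol, in a contrast that shares an estimate of the spread with the saline contrast but no array. Here 5 members (6.58%) were called, against 7.23% of all genes. Mrpl55 and Mrpl48 were again lower in DBA/2J, and Mrpl47, Mrps15 and Mrps28 were higher. Of the 76 members, 61 were higher in DBA/2J, against 59% of all genes, and 15 lower, with a median of 0.13 against 0.03 over all genes. This lean was not particular to the members. Higher in DBA/2J were also 66 of 79 nuclear oxidative phosphorylation genes (median 0.10) and 38 of 47 cytosolic ribosomal protein genes (median 0.10). Unadjusted p was below 0.05 for 27 members, against 20% of all genes, and 22 of them were higher in DBA/2J, against 12.8% of all genes. Arrays of 39 members did not overlap between strains, against 25.1% of all genes.

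Mrpl55 measured 8.38, 8.54 and 8.50 in C57BL6/J after ethanol and 7.74, 7.63 and 7.72 in DBA/2J. That is a difference of -0.78 (SE 0.08, limma adjusted p = 1.1e-05), or 1.72-fold. Mrpl48 measured 9.42, 9.57 and 9.44 against 8.82, 8.82 and 8.71, a difference of -0.70 (SE 0.09, limma adjusted p = 9.2e-05), or 1.62-fold. The change of the strain difference with ethanol was -0.11 (SE 0.12) for Mrpl55 and 0.01 (SE 0.13) for Mrpl48, and neither was called.

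Mrpl47 encodes the relative of a bacterial protein beside the exit tunnel. Its levels after ethanol were 8.44, 8.37 and 8.43 in C57BL6/J and 8.88, 8.79 and 8.97 in DBA/2J, a difference of 0.46 (SE 0.08, limma adjusted p = 0.0012). Saline arrays also kept the strains apart, at 8.52, 8.68 and 8.52 against 8.71, 8.71 and 8.79, but that difference of 0.17 was not called.

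Mrps15 and Mrps28 encode small subunit proteins. Mrps15 measured 8.24, 7.90 and 7.82 in C57BL6/J after ethanol and 8.53, 8.33 and 8.83 in DBA/2J, a difference of 0.58 (SE 0.15, limma adjusted p = 0.0309). Mrps28 measured 7.72, 7.54 and 7.53 in C57BL6/J and 7.92, 7.86 and 8.08 in DBA/2J, a difference of 0.35 (SE 0.09, limma adjusted p = 0.0322). After saline both genes overlapped between strains. The count fell to 3 members without ethanol C57BL6/J array 3, or without ethanol DBA/2J array 1 or 3.

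The ethanol comparison asks whether the subunits of the mitochondrial ribosome change within 4 h of a dose. In C57BL6/J no member was called, against 0.00758% of all genes (1 gene). Levels were lower after ethanol for 65 of 76 members, against 58.7% of all genes, with a median of -0.08 against -0.02. Repeated quantile normalization left 53 lower, with a median of -0.04 against 0.0065 over all genes. The members' median ran from -0.13 to -0.04 when 1 array was omitted. At an unadjusted p below 0.05 there were 7 members, all lower, against 2.81% of all genes in that direction. Arrays of 15 members did not overlap between treatments, against 9.85% of all genes.

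The members with the smallest p in C57BL6/J were Mrps28, Mrpl40, Mrps30 and Mrps6, none of which passed. Mrps28 went from 7.83, 7.86 and 8.08 after saline to 7.72, 7.54 and 7.53 after ethanol, a difference of -0.33 (SE 0.09, limma adjusted p = 0.922). Mrpl40, a large subunit gene, measured 8.80, 8.85 and 8.96 after saline and 8.61, 8.74 and 8.58 after ethanol, a difference of -0.23 (SE 0.09). Mrps30 measured 8.26, 8.29 and 8.44 after saline and 8.18, 8.12 and 8.11 after ethanol, a difference of -0.19 (SE 0.08). In each of these the ethanol arrays lay just under the saline arrays. Mrps6 measured 8.91, 9.03 and 8.94 after saline and 8.84, 8.64 and 8.80 after ethanol, a difference of -0.20 (SE 0.08). The limma adjusted p of these was also 0.922. At the other end, Mrpl36 had the highest difference, at 0.15.

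In DBA/2J no member was called, against 0% of all genes. Here 26 of 76 members were lower after ethanol, against 49.1% of all genes, and 50 were higher, with a median of 0.04. Repeated quantile normalization gave 33 lower and 43 higher with a median of 0.02, against -0.0039 over all genes. Centring each array on its median gave 19 and 57 with a median of 0.07, against 0.03. With the array SD as a covariate the median was 0.01, and it ran from 0.01 to 0.07 when 1 array was omitted. At an unadjusted p below 0.05 there were 3 members, all higher, against 8.28% of all genes in that direction, and 8 members showed no overlap of arrays, against 17.9% of all genes. The members with the smallest p were Mrpl51, Mrpl33, Mrps35 and Mrps15. Mrpl51 measured 9.10, 9.05 and 9.08 after saline and 9.28, 9.18 and 9.40 after ethanol, a difference of 0.21 (SE 0.08, limma adjusted p = 0.332). Mrps35 measured 7.91, 8.01 and 8.03 after saline and 8.17, 8.12 and 8.22 after ethanol, a difference of 0.19 (SE 0.09, limma adjusted p = 0.388). These genes kept the treatments apart, but by less than the fit could call. Mrpl33 differed by 0.25 (SE 0.10) and Mrps15 by 0.31 (SE 0.15), and in both the arrays overlapped. Choroid plexus markers ran from 6.72 to 7.67 after saline and from 6.17 to 8.63 after ethanol in DBA/2J, and their part in these differences was not tested.

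Averaged over the progenitors, no member was called, against 0.0455% of all genes. The members with the smallest p were Mrpl35 at -0.14 (SE 0.06), Mrpl36 at 0.15 (SE 0.07), Mrpl23 at -0.12 (SE 0.06) and Mrps28 at -0.12 (SE 0.07), and the lowest limma adjusted p was 0.506. At an unadjusted p below 0.05 there were 2 members, Mrpl35 and Mrpl36, against 8.84% of all genes. The difference between the strains' responses was tested directly, and no member passed, against 0% of all genes. There, 63 of 76 members were more positive in DBA/2J, against 57.2% of all genes. So were 59 of 79 oxidative phosphorylation genes (median 0.07) and 30 of 47 cytosolic ribosomal protein genes (median 0.06). The members' median was 0.12 against 0.03 for the whole table (after repeated quantile normalization, 0.05 against -0.0058, with 52 members more positive). Before adjustment 11 members passed p below 0.05, all positive, against 5.43% of all genes in that direction. Mrps28 differed most clearly, by 0.41 (SE 0.13, limma adjusted p = 0.563), then Mrpl40 by 0.37 (SE 0.13), Mrpl47 by 0.30 (SE 0.11) and Mrps15 by 0.58 (SE 0.22). The response contrast uses the same 12 arrays as the strain and treatment contrasts, so it is no separate evidence.

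Across the BXD strains ethanol was compared with saline within each of the 27 strains. No member was called by limma, against 0.00758% of all genes. The differences were small and nearly all of one sign: 72 of 76 members were lower, against 62.4% of all genes, and this held for all 29 Mrps genes and 43 of 47 Mrpl genes. Members ranged from -0.09 to 0.01 with a median of -0.03, against -0.01 over all genes. At an unadjusted p below 0.05 there were 5 members, all lower, against 3.58% of all genes in that direction, and the lowest limma adjusted p was 0.934.

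Those with the smallest p were Mrpl40, Mrpl48, Mrpl27 and Mrpl9. Mrpl40 had a lowest, median and highest level of 8.40, 8.72 and 8.99 after saline and 8.33, 8.62 and 8.90 after ethanol, or -0.09 for ethanol minus saline (SE 0.03), with 16 of 27 strains lower. Mrpl27, whose bacterial relative lies at the site where peptide bonds form, measured 10.09, 10.20 and 10.42 after saline and 9.96, 10.13 and 10.40 after ethanol, or -0.08 (SE 0.03), with 20 strains lower. Mrpl9 differed by -0.05 (SE 0.02, lower in 20 strains) and Mrpl48 by -0.07 (SE 0.03, lower in 18 strains). For each gene the saline and ethanol ranges largely overlapped, but they hold the spread between strains, which the comparison within strains sets aside. Members not lower were Mrpl51, Mrpl55, Mrpl33 and Mrpl39, with differences of 0.01 or less.

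**Figure D2:**
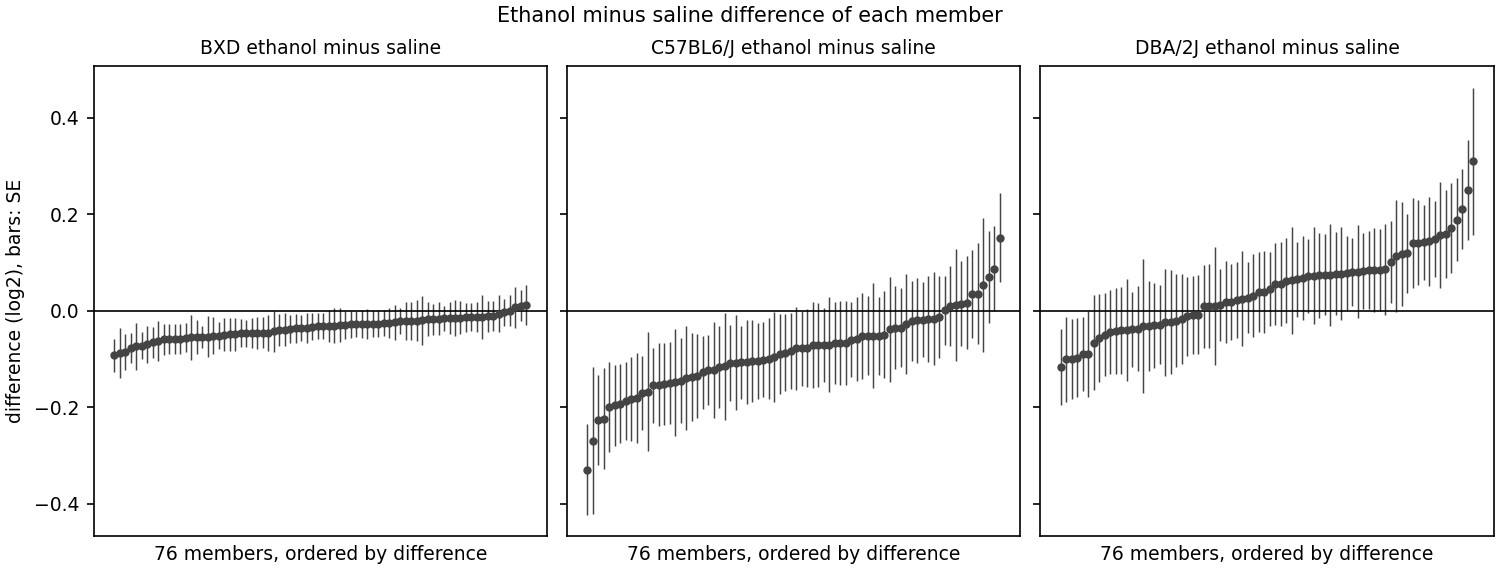
Ethanol minus saline difference (log2) of each of the 76 members in the BXD strains (27 pairs) and in each progenitor (3 arrays per treatment), ordered within each panel; bars are standard errors. Points lie mostly under 0 in the BXD panel (72 members) and in C57BL6/J (65 members) but not in DBA/2J (26 members), and no member was called in any panel.

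The members moved together within an array, so their signs are not independent of one another. Between the arrays of a strain, the mean of the 76 members changed from -0.30 (BXD18) to 0.21 (BXD14), with a mean of -0.04 (SD 0.13, n = 27), and it was lower in 17 strains. In BXD31, 75 of the 76 members were lower after ethanol, whereas in BXD14 only 1 was. The median correlation between pairs of members over arrays was 0.357 after saline and 0.415 after ethanol (27 arrays each), against 0.238 and 0.301 for 47 cytosolic ribosomal protein genes and 0.281 and 0.282 for 79 nuclear oxidative phosphorylation genes. Mrpl13 (0.861), Mrpl27 (0.843) and Mrps21 (0.832) tracked the mean of the other members most closely over the saline arrays, and Mrpl48 (-0.06) did not. These correlations are descriptions, since the genes share each array and its normalization.

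Other gene sets moved along with the members. Over the 27 strain differences, the mean of the members correlated at 0.938 with oxidative phosphorylation subunits, at 0.927 with cytosolic ribosomal proteins, at 0.505 with the SD of all values on the array, at 0.561 with oligodendrocyte markers and at -0.39 with neuron markers. With the array SD as a covariate, 72 members were lower in the BXD strains (median -0.03), as without it. In C57BL6/J 60 were lower (median -0.05, against 65 and -0.08 without it) and in DBA/2J 29 (median 0.01, against 26 and 0.04). The part of other aspects of array quality and of cell makeup in the members' differences was not tested. Lower values after ethanol were also the more common sign for 64 of the 79 oxidative phosphorylation genes and 37 of the 47 cytosolic ribosomal protein genes, with none called. Among progenitors, the mean of the members was 8.76 (SD 0.08) after saline and 8.67 (SD 0.03) after ethanol in C57BL6/J, and 8.74 (SD 0.06) and 8.78 (SD 0.04) in DBA/2J (n = 3 each). The C57BL6/J ranges overlapped (8.67 to 8.84 and 8.63 to 8.69), as did those of DBA/2J (8.67 to 8.80 and 8.74 to 8.81).

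**Figure D3:**
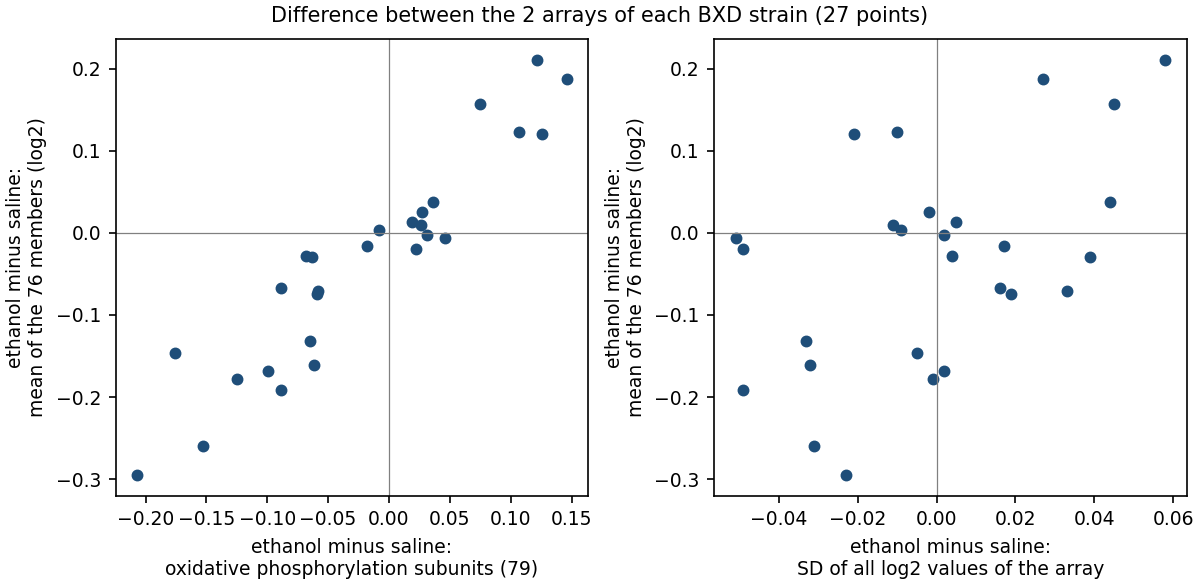
Ethanol minus saline difference of the mean of the 76 members in each of 27 BXD strains (log2), against that of 79 oxidative phosphorylation genes (left) and of the SD of all log2 values on the array (right); each point is 1 strain. Strains run from -0.30 to 0.21 on the vertical axis, with a correlation of 0.938 on the left and 0.505 on the right.

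Whether levels are a stable property of a strain was asked by setting the spread between BXD strains against that between the arrays of a strain. The strain effect was called by limma's F test for 7 of 76 members (9.21%), against 20.4% of all genes, and 8 reached p below 0.05 before adjustment, against 32.9% of all genes. The intraclass correlation, which is 1 when both arrays of a strain give the same level and near 0 when they are no more alike than arrays of different strains, had a median of -0.01 over the members and 0.184 over all genes. It was below 0 for 40 members and above 0.5 for 5, against 13.3% of all genes. The array mean of the members had an intraclass correlation of -0.41, against -0.36 for oxidative phosphorylation genes and 0.05 for cytosolic ribosomal protein genes. Low values for single genes were shared with those sets. Their medians were -0.0055 and -0.0081, and the strain effect was called for 6.33% and 10.6% of their genes.

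The 10 highest were Mrpl48 (0.940), Mrpl55 (0.933), Mrpl47 (0.690), Mrpl41 (0.651), Mrpl35 (0.503), Mrpl42 (0.489), Mrps14 (0.448), Mrps23 (0.334), Mrpl37 (0.294) and Mrps36 (0.245). The 7 at the front of that order were the ones called, with F values from 28.7 (limma adjusted p = 4.79e-14) for Mrpl48 to 2.56 (limma adjusted p = 0.0308) for Mrps14, and 6 of them are Mrpl genes. Called were 12.8% of the Mrpl genes and 3.45% of the Mrps genes, against 20.4% of all genes. The lowest intraclass correlations were those of Mrpl27 (-0.47), Mrpl4 (-0.45) and Mrps18a (-0.40). Mrpl27 is among those that followed the array mean most closely.

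Mrpl48 fell into separate levels over the strains. Strain means ran from 8.67 in BXD12 to 9.63 in BXD19, with a gap of 0.64 between 8.84 (BXD32) and 9.48 (BXD33) and a next widest gap of 0.05. Below the gap lay 11 strains and above it 16. The 6 DBA/2J arrays averaged 8.80 (SD 0.06) and the 6 C57BL6/J arrays 9.50 (SD 0.12), so the lower strains stood at the DBA/2J level and the upper ones at the C57BL6/J level. Single arrays ran from 8.52 to 8.99 in the lower strains and from 9.39 to 9.73 in the upper ones, without overlap.

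Mrpl55 was split in the same manner but by other strains. Means ran from 7.46 in BXD38 to 8.59 in BXD09, with a gap of 0.55 between 7.75 (BXD28) and 8.30 (BXD22), leaving 14 strains below and 13 above. The DBA/2J arrays averaged 7.75 (SD 0.08) and the C57BL6/J arrays 8.47 (SD 0.09), and 9 strain means lay under the lowest DBA/2J array. The correlation of Mrpl55 with Mrpl48 over the 27 strain means was 0.101. Strains were high for both genes in 9 cases, low for both in 7, high for Mrpl48 alone in 7 and high for Mrpl55 alone in 4.

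Mrpl47 varied without such a gap. Its strain means ran from 8.27 to 8.92, with a median of 8.65 and a widest gap of 0.11. C57BL6/J averaged 8.49 (SD 0.11) and DBA/2J 8.81 (SD 0.10), and strain means lay below, between and above those averages. Mrpl41, Mrpl42, Mrpl35 and Mrps14 also had no gap above 0.11, and their strain means spanned 0.42 to 0.51.

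**Figure D4:**
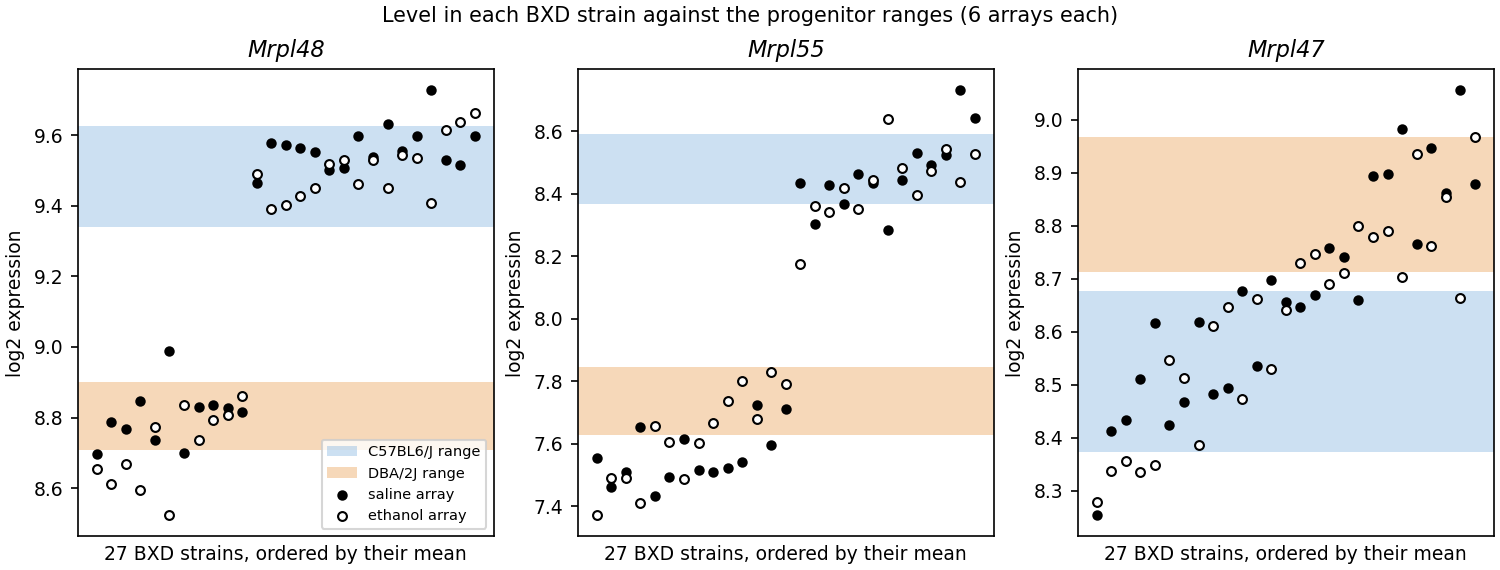
Log2 expression of Mrpl48, Mrpl55 and Mrpl47 in 27 BXD strains ordered by their mean (filled, saline array; open, ethanol array), with shaded bands for the range of the 6 arrays of each progenitor. Mrpl48 and Mrpl55 leave gaps of 0.64 and 0.55 between strain means, and Mrpl47 shows a continuous spread.

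Chromosomal position was set beside these patterns, using the gene order of RefSeq GRCm38.p6. The 5 genes most like Mrpl48 over the strain means, chosen after the values were seen, were Acer3 (0.989), Fam168a (0.988), Myo7a (0.981), Spcs2 (0.956) and Atg16l2 (-0.95). All lie on chromosome 7 with Mrpl48, with 2 protein-coding genes between it and Fam168a and 39 between it and Myo7a. Neighbours were not uniform: Fam168a was lower in DBA/2J by 1.44 after saline on the log2 scale and Rab6a by 0.50, both called by limma (adjusted p = 2.19e-07 and 0.0038), whereas Coa4, the next gene on the other side, differed by 0.18 and was not called. For Mrpl55, the closest were 2610507I01Rik (0.944), Zfp39 (0.788), Igtp (0.782), Pfn1 (-0.78) and Ube2g1 (0.767). Zfp39, Igtp, Pfn1 and Ube2g1 lie on chromosome 11 with Mrpl55, with 11, 47, 214 and 249 protein-coding genes between. The position of 2610507I01Rik is not given here. The measured neighbours of Mrpl55, which are Guk1, 2310033P09Rik, Arf1 and Iba57, were not called in either strain comparison. For the mean of all members the closest non-members were Mtres1 (0.857), 0610009B22Rik (0.840), Grpel1 (0.827), Cox7a2 (0.820) and Timm9 (0.818) over 27 strain means; these are descriptions.

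Probe sets of one gene did not always tell the same story. Of the members, 36 had further probe sets above the threshold, 60 in all. Mrpl48 had 2 others, lower in DBA/2J by 0.92 and 0.24 after saline, and their strain means correlated with those of the brightest at 0.987 and 0.931. The second of these was not called after saline or after ethanol (limma adjusted p = 0.143 and 0.063). Mrpl55 and Mrps28 had no other.

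For Mrpl47 the directions opposed. Its second probe set, dim at a mean of 5.15, averaged 5.49 (SD 0.10) in C57BL6/J and 4.92 (SD 0.09) in DBA/2J after saline (n = 3 each), a difference of -0.57 (SE 0.09, limma adjusted p = 0.000558 over 23199 probe sets), and -0.53 after ethanol (limma adjusted p = 0.00107). Over strain means the probe sets correlated at -0.76. The direction of Mrpl47 between strains therefore depends on the probe set, and averaging both gave a difference of -0.04 after ethanol, which was not called.

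**Figure D5:**
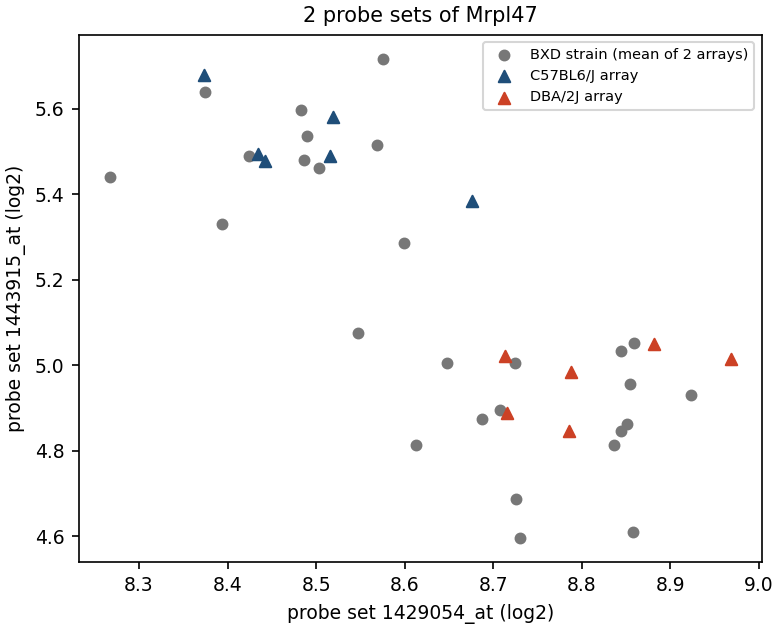
Log2 levels of the dimmer probe set of Mrpl47 against the brighter one, for the 27 BXD strains (grey, mean of the 2 arrays of a strain) and the 6 arrays of each progenitor (triangles). C57BL6/J lies at the upper left and DBA/2J at the lower right, with a correlation of -0.76 over the strain means.

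Several other members were called on a further probe set when all 23199 were tested. Mrpl35 was lower in DBA/2J by 1.63 after saline and by 0.74 after ethanol on a dimmer probe set, against 0.27 and 0.18 on the brightest. Mrpl41 was lower by 0.63 after saline on its other probe set, and Mrpl13 by 0.60 on a further one. After ethanol that probe set of Mrpl13 was instead higher in DBA/2J, by 0.20, and was not called. Mrps14 was higher by 0.60 and 0.98 on a dim probe set (mean 5.39), with an intraclass correlation of 0.903 against 0.448 on the brightest. Mrps15 was higher by 0.71 after saline on a dim probe set (mean 5.52), where the brightest gave -0.0026. Mrpl49 was higher by 0.29 after ethanol on its other probe set, where the brightest gave 0.23 and was not called. After saline that other probe set of Mrpl49 gave 0.11 and was not called, against 0.29 on the brightest. Of the 60 further probe sets, 7 were called after saline and 8 after ethanol. Over genes, 10.3% and 7.23% were called, and the share over all 23199 probe sets is not given here. In that test of all probe sets, a further one was called where the brightest was not for 6 members after saline and 3 after ethanol. The 6 include Mrpl35, whose brightest probe set had a limma adjusted p of 0.0624 there against 0.0486 over genes. Which parts of the transcripts these probe sets read, and whether they cover variants between the strains, was not tested.

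The remaining genes of mitochondrial translation were counted for context. Over all genes, 10.3% were called between strains after saline and 7.23% after ethanol. Of 5 mitoribosomal proteins with other names, 4 were measured, and 3 were lower in DBA/2J after saline: Dap3, a GTP-binding small subunit protein, by 1.02 (SE 0.09, limma adjusted p = 7.05e-07), Gadd45gip1 by 0.56 (SE 0.13, limma adjusted p = 0.0117) and Ptcd3 by 0.28 (SE 0.08, limma adjusted p = 0.0344). Dap3 was also lower after ethanol, by 1.00, and had an intraclass correlation of 0.969 over the BXD strains, above that of every member. Among 16 translation factors, Mtif2, the initiation factor, was lower by 1.05 after saline and 0.83 after ethanol (limma adjusted p = 1.18e-05 and 0.000137). Of 15 mitochondrial aminoacyl-tRNA synthetases, Fars2 alone was called, higher by 0.48 and 0.68.

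Assembly and rRNA modification factors numbered 26, of which Fastkd2 and Tfb1m were lower after saline, by 0.34 and 0.38, and Malsu1 was higher after ethanol, by 0.41. Of 22 genes of mitochondrial transcription and RNA processing, 4 were lower after saline (Fastkd3, Lrpprc, Fastkd5 and Fastkd1, by 0.32 to 0.60), and after ethanol Fastk and Pnpt1 were lower and Trmt10c higher. Of 8 nuclear regulators, Nrf1 was higher in DBA/2J by 0.38 (limma adjusted p = 0.00967) and Gabpa lower by 0.38 (limma adjusted p = 0.0478) after saline, and none was called after ethanol. Called after saline were 75% of the proteins with other names, 6.25% of translation factors and 6.67% of synthetases, against 10.3% of all genes. The shares were 7.69% for assembly factors, 18.2% for transcription and RNA processing and 25% for nuclear regulators. After ethanol the shares, in that order of lists, were 25%, 6.25%, 6.67%, 3.85%, 13.6% and 0%, against 7.23% of all genes. In none of these lists was any gene called for ethanol, in the BXD strains or in either progenitor, and the difference between the strains' responses was not called for any.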

How the data were processed

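RNA of medial prefrontal cortex was hybridised to 66 Affymetrix mouse arrays. The deposited values are log2 expression per probe set, produced by RMA in the affy package (per the submitters' processing notes). Their versions, and which array belonged to which batch, are not given in the sources read. Of 45037 probe sets, 34945 had 1 gene symbol in the platform annotation (34741 updated by Entrez ID), 932 several and 9160 none. Probe sets with a mean under the 40th percentile were dropped, and the brightest per symbol was kept (13196 genes). Mrpl30 and Mrpl53 appear only on probe sets with several symbols and were not analysed here.

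Tests used limma 3.58.1 in R 4.3.3 (two-sided), with Benjamini-Hochberg adjustment over all genes and calls at an adjusted p below 0.05. The 12 progenitor arrays were fitted as 4 group means; the 54 BXD arrays were fitted with strain as a block, since the labels pair the arrays of a strain. Strain effects used the moderated F. The scripts were tested on simulated data for the same 13196 genes: for 200 genes changed by a log2 of 1 in C57BL6/J ethanol, 98.5% were recovered. The simulated noise was independent between genes. Member differences in C57BL6/J ran only from -0.33 to 0.15, and recovery of changes of that size was not tested. The number of arrays limits the precision.

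Named genes were every member past the threshold in a comparison (else the 4 with the smallest p), the 10 highest and 3 lowest intraclass correlations, the brightest and dimmest 3, members whose probe sets differ in sign or call, the 5 genes most like the members' mean, and up to 5 called genes per list. The members, lists and tests were chosen with earlier results of these data known. Alternatives covered the brightness filter, the choice of probe set, normalization, variance prior, samples in the fit, array SD, blocks, a Wilcoxon signed-rank test and omission of arrays or strains.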

Additional observations from a re-analysis of the deposited data

How the results depend on the processing

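No member was called for ethanol in the BXD strains, in either progenitor, in their mean or in the difference of responses under any of the alternatives run, including omission of each progenitor array or each strain (0 to 0). Members lower after ethanol numbered 68 to 75 in the BXD strains, 54 to 70 in C57BL6/J and 18 to 35 in DBA/2J over those omissions. The 5 members called between strains after saline became 8 with the mean of a gene's probe sets, 3 with the array SD as a covariate and 3 with replicate number as a block, and 2 to 5 when 1 array was omitted. After ethanol the 5 became 8 when all 66 arrays were fitted together, 8 under a robust prior with a trend, 4 with the replicate block, and 3 to 7 when 1 array was omitted; the cause was not tested. Whether replicate numbers pair the arrays could not be settled with 3 arrays per group. Correlations of same-numbered deviations ran from -0.39 to 0.26, and 2 of 12 arrays correlated best with their own number. Dropping the strain block left 0 called and 72 lower in the BXD strains. With the mean of a gene's probe sets, Mrpl47 after ethanol turned to -0.0354 and Mrpl35 in the mean progenitor response to 0.0367. Without 1 array, the median strain difference of the members ran from -0.06 to 0.05 after saline and from 0.12 to 0.17 after ethanol. Calls of Mrpl48 and Mrpl55 between strains held under all 10 other settings and all 12 omissions, whereas Mrpl35 after saline was lost in 5 of 10 settings and in 10 of 12 omissions. Mrpl47 lost its BXD strain call in 1 of 8 settings and Mrps14 in 2. The BXD strain effect called 6 to 7 members.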
